A study of Rattus norvegicus with 18 samples.

Results

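The comparison described here set the visceral white adipose tissue (vWAT) of 6 TMAO-treated hypertensive rats against that of 6 normotensive rats. It used 12 of the 18 RNA-seq libraries of the study, chosen by their sample labels alone. The SHR-TMAO group were male spontaneously hypertensive rats (SHRs), young at the start, that drank water with 1 g/L trimethylamine N-oxide (TMAO) for 22 weeks. The WKY group were male Wistar-Kyoto rats kept on normal water as normotensive controls. A further group of 6 SHRs that drank tap water over the same time (SHR-Water) is given beside the results. Strain and TMAO differed together between SHR-TMAO and WKY, so their parts in any difference cannot be told apart in this comparison. Each group is 1 inbred strain from 1 supplier, and the study's methods give no age for the WKY rats.

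SHR and WKY are sister strains that were bred from Wistar stock, SHR by selection for high blood pressure, and they differ at many loci across the genome. vWAT stores triglycerides around the abdominal organs and releases fatty acids and hormones, and besides adipocytes it holds vessels, mesothelium, fibroblasts and immune cells. TMAO is made in the liver from trimethylamine, which gut bacteria release from choline and carnitine. In bulk tissue, fewer cells of a type and less RNA per cell cannot be told apart.

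The deposited table names its genes by Ensembl identifier only, and 0 of these identifiers were found in the reference name table. Genes are therefore given here by their position on the rat build Rnor_6.0, with no symbol and no function, and neither the tissue label nor the cell type makeup could be checked against marker genes. Reads were counted on the exons of 32883 genes by strand. Total counts per library ran from 14879416 to 18874161 in SHR-TMAO and from 10774133 to 18841046 in WKY. The mean total was 1.69e+07 ± 1.65e+06 in SHR-TMAO and 1.50e+07 ± 3.35e+06 in WKY (SD, n = 6 each; two-sided exact permutation test, p = 0.262, adjusted 0.701 over 4 library measures). The mitochondrial genome took 16.8% ± 3.52 and 14.9% ± 5.12 of the counts (SD, n = 6 each; exact permutation p = 0.474, adjusted 0.701).

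WKY 1 and WKY 3, the libraries of lowest total, stood apart from the other WKY libraries on a stretch of chromosome 14 and a stretch of chromosome 6, which were singled out after their values were seen. The 9 tested genes of the chromosome 14 stretch, between 46523594 and 46657975, summed to 14409 CPM in WKY 1 and 11019 CPM in WKY 3. In the other WKY libraries they summed to between 328 and 668 CPM, and in SHR-TMAO to between 328 and 965 CPM. SHR-Water held between 279 and 3916 CPM there. The 5 tested genes of the chromosome 6 stretch, between 30635071 and 30643594, followed the same libraries, with 2538 CPM in WKY 1, 2820 CPM in WKY 3, 61.5 to 117 CPM in the other WKY libraries and 46.2 to 236 CPM in SHR-TMAO. On both stretches the SHR-TMAO sums fell in order of replicate number, from SHR-TMAO 1 to SHR-TMAO 6, and this order was not tested. On each stretch 1 gene of 49 bases passed the test as lower in SHR-TMAO, and without WKY 1 and WKY 3 neither did. The gene at 46654573 to 46654621 went from a log2 fold change of -4.35 to -0.04, and the gene at 30635071 to 30635119 from -3.33 to -0.45 (adjusted p 0.0397 to 0.979, and 0.0498 to 0.758).

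Of 12833 genes tested, 464 differed between SHR-TMAO and WKY, which is 3.62% (edgeR's quasi-likelihood test, with the Benjamini-Hochberg adjusted p below 0.05 and the log2 fold change 1 or more in size). SHR-TMAO was higher in 186 genes (1.45%) and lower in 278 genes (2.17%). Without WKY 1 and WKY 3 the count was 286, of which 118 were higher and 168 lower, and 248 of them were also among the 464. On CPM normalized over all 18 libraries, the 6 SHR-TMAO and the 6 WKY values did not overlap in 523 genes (4.08%), and 262 of the 464 were among these. The same test of SHR-Water against the same 6 WKY rats called 445 of 13017 genes, which is 3.42%.

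Most genes lay close to no change. The median log2 fold change of all genes tested was -0.02, and the middle 90% lay between -0.95 and 0.69. Among the higher genes the median log2 fold change was 1.64 and the largest 9.63, with 67 genes at 2 or more, 23 at 3 or more and 8 at 5 or more. Among the lower genes the median was -1.51 and the most extreme -8.91, with 69, 26 and 7 genes at the same sizes. The higher genes together took 3.22% of the normalized counts in SHR-TMAO and 0.949% in WKY. Of these shares 1.58% and 0.389% were of 1 gene, at 264160129 of chromosome 1, whose groups overlapped and whose call was lost without WKY 1 and WKY 3, and the other higher genes took 1.64% and 0.560%. The lower genes took 0.354% in SHR-TMAO and 1.11% in WKY.

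**Figure D1:**
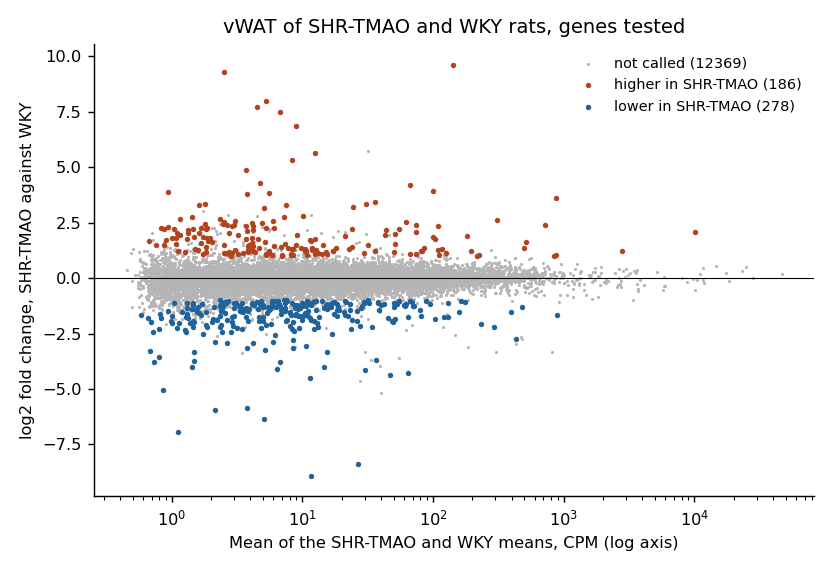
Each point is 1 of the 12833 genes tested, with the mean of its SHR-TMAO and WKY means in CPM on a log axis and its log2 fold change (SHR-TMAO against WKY) on the vertical axis. The 186 higher genes (red) and 278 lower genes (blue) lie at all levels, and the 12369 genes not called (grey) include 13 with a log2 fold change of 3 or more in size.

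Genes with few counts were called more often than abundant ones. When the tested genes were divided into 4 bins of equal size by their mean CPM, the called share was 5.55% in the lowest bin, 4.71% in the second, 1.87% in the third and 2.34% in the highest. By exon length the bins were closer together, at 3.96%, 3.34%, 3.46% and 3.71% from the shortest to the longest. Single-exon genes made up 45 of the called genes, 22 of them higher and 23 lower. That was 6.51% of the 691 single-exon genes tested, beside 3.45% of the 12142 genes with several exons. These shares are descriptions with no test.

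The 24 genes whose groups did not overlap and whose p was smallest, 12 in each direction, each kept their call under all 23 alternative settings. They were picked for small p in the same data, so this is no separate support. ENSRNOG00000001701, on chromosome 11 from 33909439 to 33917674 (plus strand, 3 exons), led the higher genes. Its lowest, median and highest values were 222, 298 and 333 CPM in SHR-TMAO and 0.0485, 0.290 and 0.961 CPM in WKY. The gene was nearly absent from WKY libraries, with 1 to 15 counts in each, and abundant in each SHR-TMAO library, with 3446 to 6005 counts. The difference was 794-fold (log2 fold change 9.63 ± 0.38 SE, adjusted p = 2.00e-09). In SHR-Water it ran at 126, 191 and 289 CPM.

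ENSRNOG00000017286, on chromosome 15 from 42757235 to 42794279 (minus strand, 19 exons), was present in both strains but at different levels. It had 161, 188 and 210 CPM (lowest, median, highest) in SHR-TMAO and 8.92, 10.7 and 20.9 CPM in WKY. The groups lay far apart, with a 15.1-fold difference (log2 fold change 3.92 ± 0.21 SE, adjusted p = 5.17e-08). SHR-Water stood at 153, 170 and 205 CPM.

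Of the lower genes, ENSRNOG00000062283, a single-exon gene on chromosome 1 from 112074735 to 112076013 (minus strand), had the smallest p of all genes. Its values were 0.0578, 0.118 and 0.319 CPM in SHR-TMAO and 35.5, 54.2 and 66.5 CPM in WKY. SHR-TMAO libraries held 1 to 6 counts of it and WKY libraries 551 to 1036 counts. It was lower in SHR-TMAO by a log2 fold change of -8.39 ± 0.30 SE (335-fold, adjusted p = 8.84e-10), and in SHR-Water it had 0, 0.0306 and 0.226 CPM. ENSRNOG00000022490, also with a single exon, on chromosome 3 from 9096044 to 9096481 (minus strand), had 1.27, 1.79 and 2.07 CPM in SHR-TMAO and 17.5, 28.1 and 34.1 CPM in WKY. It kept a low level in SHR-TMAO instead of nearly vanishing, and was 16.2-fold lower (log2 fold change -4.01 ± 0.20 SE, adjusted p = 4.39e-08), with 0.824, 1.47 and 1.75 CPM in SHR-Water.

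**Figure D2:**
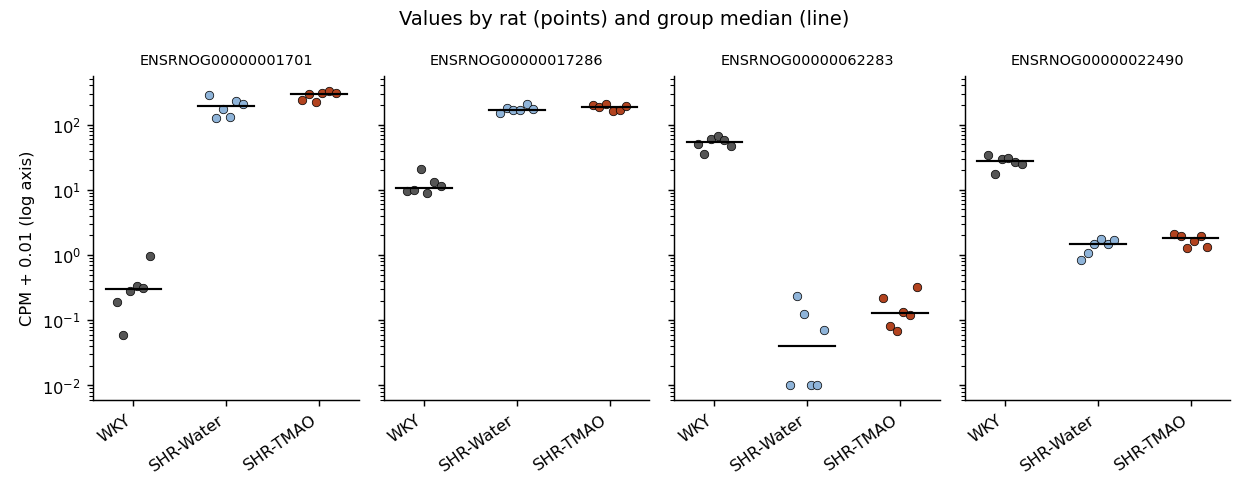
CPM plus 0.01 of the 4 genes given by identifier, on a log axis shared by the panels, with 1 point for each of the 6 rats of WKY, SHR-Water and SHR-TMAO and a line at the group median. SHR-TMAO is apart from WKY in each panel (298 CPM in SHR-TMAO and 0.290 CPM in WKY at the medians of the first gene), and the SHR-Water points lie on the same side of the WKY points as the SHR-TMAO points do.

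The other 10 higher genes of this kind lay on chromosomes 1, 6, 10, 11, 15, 20 and X. Those at high levels in SHR-TMAO included the gene at 5351605 to 5421098 of chromosome 20 (12 exons), which had 1131, 1413 and 2252 CPM in SHR-TMAO and 80.8, 128 and 206 CPM in WKY (log2 fold change 3.61 ± 0.26 SE). Its exons overlap those of 2 other genes of the same strand, and reads on the shared bases were not counted. The gene at 28435507 to 28472880 of chromosome X (7 exons) had 468, 535 and 567 CPM in SHR-TMAO and 50.5, 81.1 and 134 CPM in WKY (2.62 ± 0.19). Both were abundant in WKY too, and the lowest SHR-TMAO value of each was above 3 times the highest WKY value.

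At middle levels, the gene at 56846789 to 57193961 of chromosome 6 (13 exons) had 85.2, 99.5 and 135 CPM in SHR-TMAO and 14.3, 17.2 and 23.9 CPM in WKY (log2 fold change 2.51 ± 0.17 SE). On chromosome 20, the gene at 13817795 to 13825475 (4 exons) had 77.5, 119 and 221 CPM against 3.44, 7.08 and 9.75 CPM (4.20 ± 0.30), and the gene at 3791407 to 3794027 (6 exons) 46.1, 65.0 and 84.1 CPM against 4.02, 5.68 and 8.79 CPM (3.44 ± 0.20). SHR-TMAO values stayed clear of WKY values for each, and the spread within SHR-TMAO was widest for the gene at 13817795.

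Near the floor in WKY were the single-exon gene at 252944103 to 252946170 of chromosome 1, with 9.13, 18.2 and 28.1 CPM in SHR-TMAO and 0, 0.154 and 0.256 CPM in WKY (log2 fold change 6.85 ± 0.46 SE), and the gene at 82232107 to 82252963 of chromosome 10 (20 exons), with 6.25, 6.75 and 9.05 CPM against 0.0970, 0.183 and 0.512 CPM (4.89 ± 0.33). The gene at 62520953 to 62532175 of chromosome 15 had 5.17, 7.15 and 8.73 CPM against 0.361, 0.449 and 0.731 CPM (3.82 ± 0.26), and the gene at 32440237 to 32447259 of chromosome 11 had 5.96, 8.92 and 12.2 CPM against 0.244, 0.399 and 0.897 CPM (4.28 ± 0.31). WKY libraries held at most 14 counts of any of these, so their fold changes rest on few WKY reads. The gene at 189289957 to 189395276 of chromosome 1 is described with the silent genes. Adjusted p over the 12 higher genes lay between 2.00e-09 and 1.22e-06.

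The other 10 lower genes split into those that stayed expressed in SHR-TMAO and those close to no reads. Still expressed were the gene at 36638457 to 36642734 of chromosome 12 (2 exons), with 67.2, 107 and 136 CPM in SHR-TMAO and 371, 493 and 574 CPM in WKY (log2 fold change -2.19 ± 0.17 SE), and the gene at 19176277 to 19191863 of chromosome 14 (15 exons), with 68.9, 88.7 and 104 CPM against 281, 359 and 486 CPM (-2.09 ± 0.16). These 2 were the most abundant of the 12 in WKY and had among the smallest fold changes. The gene at 59408546 to 59410211 of chromosome 3, with 1 exon, fell further, from 84.4, 104 and 174 CPM in WKY to 4.33, 6.29 and 8.19 CPM (-4.30 ± 0.24), and the gene at 3146856 to 3150852 of chromosome 20 (8 exons) had 2.37, 3.10 and 4.55 CPM against 35.2, 52.5 and 87.4 CPM (-4.15 ± 0.26). The gene at 157726941 to 157733643 of chromosome 4 (5 exons) was the mildest of the 12, with 3.89, 5.15 and 6.44 CPM against 16.7, 19 and 23.3 CPM (-1.95 ± 0.16).

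Of those close to no reads, the gene at 15577249 to 15577977 of chromosome 10 (3 exons) had 12.6, 18.4 and 47.0 CPM in WKY and reads in 1 SHR-TMAO library only, at 0.231 CPM (log2 fold change -8.91 ± 0.68 SE). The single-exon gene at 121342679 to 121343013 of chromosome 7 had 5.33, 10.4 and 13.7 CPM in WKY and 0, 0.0844 and 0.414 CPM in SHR-TMAO (-6.38 ± 0.54). On chromosome 20, the gene at 2540864 to 2541440 had 4.78, 7.25 and 11 CPM in WKY and 0, 0.138 and 0.251 CPM in SHR-TMAO (-5.85 ± 0.48). All 3 held at most 6 counts in any SHR-TMAO library, so the size of a fold change here depends on the few counts and on the prior count of the fit. The gene at 80948658 to 81143447 of chromosome 2 follows with the silent genes. Adjusted p over the 12 lower genes lay between 8.84e-10 and 5.28e-06.

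The 12th lower gene, at 14071507 to 14113255 of chromosome 4 (plus strand, 13 exons), lies within a longer gene of the same strand, at 14001761 to 14249749 (40 exons), and the pair moved in opposite directions. The inner gene had 0, 0.0592 and 0.138 CPM in SHR-TMAO and 1.99, 4.27 and 6.28 CPM in WKY (log2 fold change -5.94 ± 0.51 SE). The outer gene had 809, 1172 and 1619 CPM in SHR-TMAO and 163, 189 and 398 CPM in WKY (2.38 ± 0.25, adjusted p = 5.74e-05). Their exons share bases, on which reads were not counted for either gene, and the outer gene was looked at after the inner gene was found. SHR-Water had 0, 0.158 and 0.278 CPM of the inner and 893, 991 and 1218 CPM of the outer gene.

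Genes silent in 1 group were those with at most 3 counts over its 6 libraries and at least 10 counts in each library of the other group. The word silent describes counts only. Reads of both strains were mapped to the same rat build, and the strains differ at many loci. Whether such differences changed how reads mapped or were counted was not tested, for these genes or for any other gene given here. WKY was silent for 3 genes and SHR-TMAO for 2. The gene at 33812662 to 33865933 of chromosome 11 (5 exons) had no count in any WKY library and 46 to 131 counts in each SHR-TMAO library. It overlaps 6 other genes of its strand and shares exon bases with 2, and reads on the shared bases were not counted. With a floor of 3 counts set for the WKY group, the ratio in favour of SHR-TMAO is 152. With the 0 counts observed, the 95% exact counting interval of the ratio starts at 123. SHR-Water libraries held 7 to 49 counts. Its neighbour at 33781870 to 33801999 (minus strand, 11 exons) had 3 counts over the WKY group, all in 1 library, and 81 to 224 in each SHR-TMAO library, a ratio of 270 (95% exact counting interval 92.2 to 1314). The gene at 189289957 to 189395276 of chromosome 1 (29 exons) had 3 counts over WKY and 93 to 378 in each SHR-TMAO library, a ratio of 324 (111 to 1575).

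In the other direction, the gene at 80948658 to 81143447 of chromosome 2 (61 exons) had 1 count over the 6 SHR-TMAO libraries and 13 to 54 in each WKY library, a ratio of 223 in favour of WKY (95% exact counting interval 39.5 to 8832). The single-exon gene at 63119395 to 63119607 of chromosome 8 had 3 counts over SHR-TMAO and 11 to 26 in each WKY library, a ratio of 41.5 (13.8 to 204). This gene did not pass the filter on low counts and has no test. The intervals cover counting error only. SHR-Water held 1 count over its 6 libraries for each of these 2 genes.

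Called genes lay next to each other in 6 runs of at least 3 neighbouring tested genes, which together held 21 genes. The run on chromosome 11, from 33781870 to 33917674, held both WKY-silent genes of that chromosome and the gene with the largest fold change, with log2 fold changes of 7.71, 9.30 and 9.63. A run on chromosome 1 from 252944103 to 253185533 was higher in SHR-TMAO at all 3 genes, and the fold changes fell along it. The gene at 252944103 (6.85) was followed by the gene at 252976644 to 253000760, with 10.5, 12.2 and 15.2 CPM in SHR-TMAO and 0.632, 1.82 and 3.65 CPM in WKY (2.75 ± 0.32 SE), and by the gene at 253119112 to 253185533, with 4.41, 7.61 and 10.2 CPM against 1.67, 3.29 and 5.24 CPM (1.22 ± 0.27). The last of these overlapped between the groups, and its adjusted p went from 0.0131 to 0.0693 without WKY 1 and WKY 3.

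Another run on chromosome 1, from 227670159 to 227904767, was lower in SHR-TMAO at all 4 genes, with log2 fold changes of -2.26, -2.19, -4.10 and -2.80. Its largest difference was at 227757425 to 227818305 (10 exons), which had 0.0555, 0.315 and 2.70 CPM in SHR-TMAO and 7.76, 12 and 17.5 CPM in WKY. The gene at 227743612 to 227904767 spans the other two to its right, and its exons overlap those of the gene at 227892956 to 227904737, with reads on the shared bases counted for neither. The first gene, at 227670159 to 227680128, had an adjusted p of 0.0256, and of 0.178 without WKY 1 and WKY 3.

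The 3 other runs held genes of both directions. On chromosome 20 between 2540864 and 3150852, 4 genes were lower (-5.85, -2.32, -1.77 and -4.15 on the log2 scale) and 1 gene was higher, at 3135791 to 3140610, with 0.965, 2.86 and 5.72 CPM in SHR-TMAO and 0, 0.346 and 0.640 CPM in WKY (3.33 ± 0.68 SE). The groups overlapped at the genes of -2.32 and -1.77, and the second of these, at 2704148 to 2707120, lost its call in 7 of 23 alternative settings, among them the replicate block and the fit without WKY 1 and WKY 3. On chromosome 10 between 14701253 and 14937336, the first 2 genes were lower (-1.97 and -2.58) and the third higher (1.58). SHR-Water was lower still at the first 2, with medians of 0.266 and 0.380 CPM beside 1.28 and 1.49 CPM in SHR-TMAO and 4.21 and 11.3 CPM in WKY. The run on chromosome 9 between 20264418 and 20621051 was the least steady, and each of its 3 genes lost its call in 8 or more of 23 alternative settings. Its first gene had 0.251, 0.434 and 0.897 CPM in SHR-TMAO, 0.18, 2.07 and 10.4 CPM in WKY and 0.183, 3.42 and 11.2 CPM in SHR-Water, so SHR-TMAO was lower than the medians of both other groups but overlapped them (-2.88 ± 0.76 against WKY, adjusted p = 0.0349, and -2.93 ± 0.68 against SHR-Water, adjusted p = 0.0841).

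Across the nuclear chromosomes, the called share was highest on chromosome 20. There 35 of 392 tested genes were called, which is 8.93%, with 9 higher and 26 lower, and the median log2 fold change of the chromosome was -0.11. The other autosomes lay between 1.38% (chromosome 17, 5 of 362 genes) and 5.22% (chromosome 13, 21 of 402 genes), and chromosome X at 3.39%. Chromosome 20 held 31 called genes when WKY 1 and WKY 3 were left out.

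**Figure D3:**
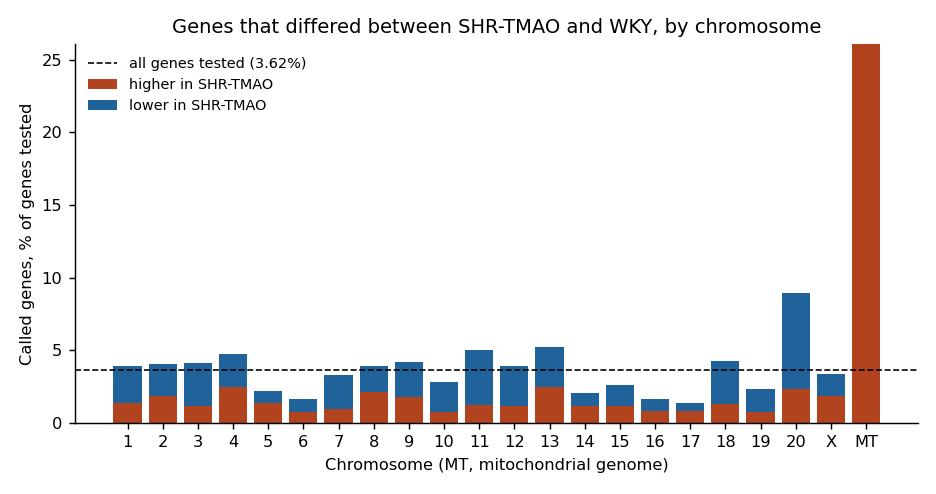
Bars give called genes as a percentage of the genes tested on each chromosome, divided into higher (red) and lower (blue) in SHR-TMAO, with the share over all genes (3.62%) as a dashed line. Chromosome 20 reaches 8.93%, mostly lower genes, and the mitochondrial genome (MT) 26.1%, all of them higher.

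Within chromosome 20, the calls were densest in its first 5 Mb. Of 111 genes tested there, 19 were called (17.1%), 3 higher and 16 lower, and the median log2 fold change of all 111 was -0.24. In the rest of the chromosome 16 of 281 genes were called (5.69%), 6 higher and 10 lower, with a median of -0.03. Of these 16, 7 lay between 10 and 15 Mb, where 55 genes were tested (12.7%, 3 higher and 4 lower), 5 between 5 and 10 Mb, where 83 were tested (6.02%), and 4 among the 143 tested genes beyond 15 Mb. Of the 557 windows of 5 Mb that held a tested gene, 12 had 5 or more called genes, and no window had more than the first of chromosome 20. Among those 12 windows the called share was higher than in the first of chromosome 20 on the mitochondrial genome, at 160 to 165 Mb of chromosome 4, with 6 of 27 genes (22.2%), and at 250 to 255 Mb of chromosome 1, with 5 of 23 (21.7%). Windows with fewer called genes reached higher shares, such as 3 of 7 genes (42.9%) at 20 to 25 Mb of chromosome 9. The windows were compared with no test.

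The short arm of rat chromosome 20 carries the major histocompatibility complex (MHC, RT1 in the rat), whose class I and class II molecules present peptides to T cells and whose genes are among the most variable between inbred strains. In the reference name table, which is of another build, 67 of 67 genes with an RT1 symbol are on chromosome 20. Which of the called genes are RT1 genes cannot be read from the identifiers. Near-identical copies are frequent in such families and reads that mapped to several places were not counted, so the levels of single genes here are uncertain.

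Among the 16 lower genes of this window, log2 fold changes ran from -1.03 to -5.85. The most abundant was at 4039413 to 4049711 (6 exons), with 30.0, 46.2 and 55.3 CPM in SHR-TMAO and 107, 167 and 197 CPM in WKY (-1.87 ± 0.18 SE, adjusted p = 2.49e-05). Its neighbour at 4066132 to 4070721 (5 exons) had 12.7, 21.4 and 29.5 CPM against 36.4, 56.9 and 76.8 CPM (-1.44 ± 0.24, adjusted p = 0.00296). At both genes SHR-Water was lower than SHR-TMAO at the medians, with 24.0 and 10.04 CPM, and the difference of SHR-TMAO from SHR-Water was 0.77 ± 0.25 (adjusted p = 0.104) and 1.03 ± 0.24 (adjusted p = 0.0841) on the log2 scale.

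A larger difference was seen at 4302347 to 4508214 (42 exons), with 2.60, 5.11 and 10.2 CPM in SHR-TMAO and 25.2, 67.4 and 111 CPM in WKY (log2 fold change -3.72 ± 0.42 SE, adjusted p = 8.46e-05). SHR-Water was spread widely there, at 2.69, 9.46 and 59.0 CPM, and its highest rat lay inside the WKY range. The gene spans 7 others of its strand and shares exon bases with 1. Of the higher genes, those at 3791407 and 3135791 are given above, and the third, at 3945601 to 3952846 (4 exons), had 1.56, 2.74 and 5.34 CPM in SHR-TMAO and 0.0610, 0.304 and 0.541 CPM in WKY (3.31 ± 0.44, adjusted p = 0.000435).

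The called genes of the window differed in how firmly they were called. Groups did not overlap in 11 of the 19, a share like that over all called genes (262 of 464). Of the 19, 10 overlap another annotated gene of either strand, and this share was not computed over all genes. The genes at 3189473, 3404711 and 4638663 had adjusted p of 0.0455, 0.0439 and 0.0266 and each lost its call in 13 or 14 of 23 alternative settings. By contrast, the gene at 4673843 to 4792450 (13 exons), with 1.5, 1.80 and 3.05 CPM in SHR-TMAO and 4.12, 9.14 and 11.9 CPM in WKY (-2.14 ± 0.27), kept its call in each setting, as did the gene at 4392626 to 4396250, with 2.5, 3.59 and 6.0 CPM against 7.50, 11.2 and 14.7 CPM (-1.48 ± 0.24). The exons of the gene at 4673843 overlap those of 4 other genes of its strand, and reads on the shared bases were not counted. SHR-TMAO libraries held 25 to 55 counts of it.

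**Figure D4:**
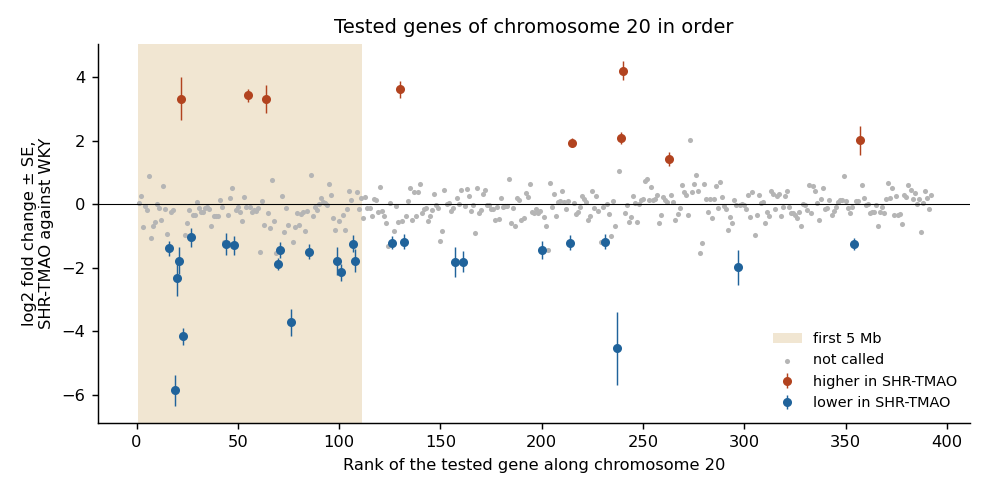
The log2 fold change (SHR-TMAO against WKY) of each of the 392 tested genes of chromosome 20 is plotted against its rank along the chromosome, with SE bars on the called genes. The shaded first 5 Mb hold 19 of the 35 called genes, 16 of them lower (blue), a further 12 called genes follow between 5 and 15 Mb, and 4 lie beyond.

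The mitochondrial genome encodes tRNAs, rRNAs and subunits of the respiratory chain. All 6 of its called genes, of 23 tested (26.1%), were higher in SHR-TMAO, and most of them were short. Of 8 genes shorter than 100 bases, 5 were called, and the median log2 fold change of the 8 was 1.55. Of the 15 longer genes 1 was called, and their median was 0.29, with a range from -0.49 to 1.23.

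Of the short genes, the one at 3761 to 3831 (71 bases, minus strand) had 47.7, 79.6 and 121 CPM in SHR-TMAO and 8.34, 22.1 and 31.1 CPM in WKY (log2 fold change 1.97 ± 0.29 SE, adjusted p = 0.00104). The gene at 15280 to 15346 (67 bases) had 1.86, 8.42 and 16.5 CPM against 0.291, 1.03 and 1.80 CPM (3.17 ± 0.52, adjusted p = 0.00228), and the gene at 4943 to 5008 (66 bases) had 0.983, 1.77 and 4.72 CPM against 0.0610, 0.350 and 0.641 CPM (2.76 ± 0.55, adjusted p = 0.00777). For these 3 the groups did not overlap. At the medians SHR-Water was above SHR-TMAO at the gene at 3761 (107 CPM) and below it at the genes at 15280 and 4943 (2.65 and 1.69 CPM). The genes at 15280 and 4943 follow genes of the same strand that end at 15278 and 4942. Reads that overlapped several genes were not counted, so the counts of such short genes depend on where reads begin and end. The genes at 15348 to 15415 and at 14062 to 14130 differed by 1.78 ± 0.37 and 1.32 ± 0.33 (adjusted p = 0.0104 and 0.0263). The second lost its call in 6 of 22 alternative settings, among them the gene length offset and the fit without WKY 1 and WKY 3, and at that gene SHR-Water was the highest group, with a median of 23.6 CPM beside 9.31 CPM in SHR-TMAO and 5.24 CPM in WKY.

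The longer called gene, at 9451 to 9798 (348 bases), was the most abundant of the 6, with 2786, 3855 and 5718 CPM in SHR-TMAO and 841, 1753 and 2177 CPM in WKY (log2 fold change 1.23 ± 0.24 SE, adjusted p = 0.00785). SHR-Water lay between them at the median, with 1700, 2369 and 5554 CPM. Without the mitochondrial genes in the normalization and test, 460 of the nuclear genes were called.

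**Figure D5:**
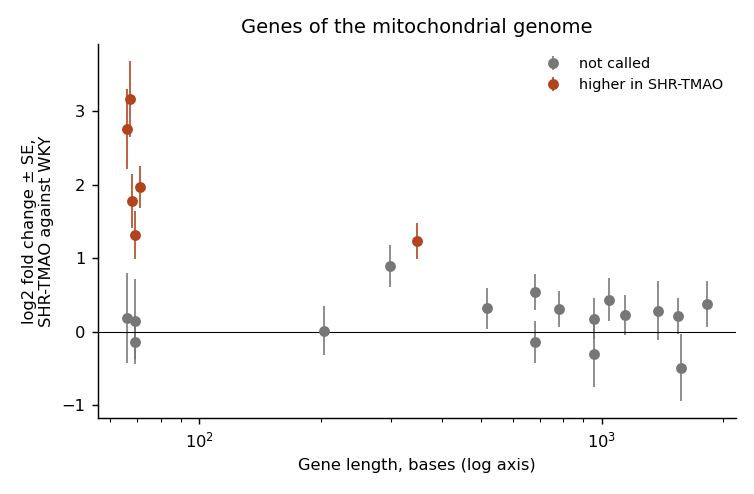
The log2 fold change ± SE (SHR-TMAO against WKY) of the 23 tested mitochondrial genes is plotted against gene length on a log axis. The called genes (red) are 5 of the 8 shorter than 100 bases and 1 of 348 bases, and the 14 other longer genes lie between -0.49 and 0.90.

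Spreads differed among the most abundant called genes. The gene at 264160129 to 264172729 of chromosome 1 (minus strand, 6 exons) had 4072, 11988 and 33565 CPM in SHR-TMAO and 2473, 3232 and 6478 CPM in WKY (log2 fold change 2.06 ± 0.46 SE, adjusted p = 0.0148). Its groups overlapped, SHR-Water had 1422, 5722 and 10952 CPM, and without WKY 1 and WKY 3 the adjusted p was 0.0894. The next higher genes by level, at 9451 of the mitochondrial genome and at 5351605 of chromosome 20, are given above, and their groups did not overlap. Of the lower genes, the most abundant were on chromosomes 10 and 12. The gene at 86950557 to 86962578 of chromosome 10 (4 exons) was the clearest, with 79.3, 96.1 and 200 CPM in SHR-TMAO and 419, 773 and 1197 CPM in WKY, with no overlap (-2.73 ± 0.30, adjusted p = 6.29e-05).

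Also on chromosome 10, the gene at 15602794 to 15603649 had 186, 317 and 820 CPM in SHR-TMAO and 790, 1161 and 2080 CPM in WKY (-1.66 ± 0.38, adjusted p = 0.0175). The gene at 16170162 to 16172129 of chromosome 12 had 157, 311 and 340 CPM against 340, 605 and 1270 CPM (-1.32 ± 0.29, adjusted p = 0.0139). Both overlapped between the groups at their edges. The first lies on the same chromosome and strand as the near-silent gene at 15577249, with its start at 15602794.

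Some called genes had most of the counts of their higher group in 1 rat. In 5 of the 464, more than 50% of the normalized counts of the higher group were in 1 library, 3 of them in SHR-TMAO 3, 1 in WKY 3 and 1 in WKY 5. The 3 genes of SHR-TMAO 3 lie at 54925607 and 23113048 of chromosome 8 and at 115215060 of chromosome 4, and there that rat held 77.8%, 85.0% and 95.1% of the counts of its group. Without SHR-TMAO 3 the gene at 23113048 lost its call (log2 fold change 3.83 to 1.36, adjusted p 0.0397 to 0.108), while the others kept theirs. The gene at 115215060 went from 5.66 to 1.57 (adjusted p 0.0310 to 0.0294), and the gene at 54925607 from 7.48 to 5.57 (adjusted p 0.00260 to 0.000144). Among the 13 genes with a log2 fold change of 3 or more in size that were not called, 11 had more than 50% of the counts of their higher group in 1 library, and 8 lie on the 2 stretches that were high in WKY 1 and WKY 3.

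SHR-Water gives the level of each gene in the hypertensive strain without TMAO, and it was compared with WKY on the same 6 WKY libraries, so the 2 sets of differences are not independent. Over the 12 higher genes of smallest p, log2 fold changes ran from 2.51 to 9.63 for SHR-TMAO against WKY and from 2.25 to 9.07 for SHR-Water against WKY. Over the 12 lower genes they ran from -1.95 to -8.91 and from -1.57 to -9.43. Between SHR-TMAO and SHR-Water, where the strain is the same, the 12 higher genes differed by 0.05 to 0.58 on the log2 scale (adjusted p from 0.121 to 0.873). Only 6 of the 12 lower genes had enough counts for that test, and they differed by -0.61 to 0.79 (adjusted p from 0.0841 to 0.754).

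Of the 464 called genes, 433 were tested between SHR-TMAO and SHR-Water, and their adjusted p ran from 0.0834 to 0.997 with a median of 0.382. At an unadjusted p under 0.05 there were 130 of the 433 (30.0%), beside 25% of the 12852 genes tested in that comparison, and both comparisons use the same SHR-TMAO rats. A p above the threshold does not show that SHR-TMAO and SHR-Water were alike at these genes. SHR-TMAO and SHR-Water also differed in mean mitochondrial share and mean gene length trend. The part of these library measures in the comparison was not tested. The spread between rats was of the same order in the groups, with a median SD of log2(CPM + 0.5) over genes of 0.299 in SHR-TMAO, 0.358 in WKY and 0.342 in SHR-Water.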

How the data were processed

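RNA of vWAT was extracted with TRIzol, made into libraries with SMART technology and sequenced on an Illumina NovaSeq system. Per the submitters' notes, the authors used cutadapt 2.5, HISAT2 2.1.0 and featureCounts 1.6.3. The deposited values are whole-number counts per gene, which the authors neither normalized nor filtered. Per the file header, featureCounts summed the reads on exons by gene with strand setting 2 on the Ensembl release 96 annotation of Rnor_6.0, and reads that mapped to several places or overlapped several genes were not counted.

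The sample titles gave the groups and replicate numbers, with 6 rats a group. SHR-TMAO and WKY were compared with edgeR 4.0.16 in R 4.3.3 (TMM, filterByExpr, quasi-likelihood test, Benjamini-Hochberg adjustment over all genes tested). The SE of a log2 fold change was derived from the test, as its size divided by the square root of the F statistic. For genes with few counts this SE is rough. A gene was called where its adjusted p was below 0.05 and its log2 fold change 1 or more in size, the study's thresholds. CPM are on a TMM scale over all 18 libraries, in Python 3.11.15. Library measures were compared by a two-sided exact permutation test over the 924 splits, whose smallest p is 0.00216. Precision falls with the counts behind a value, with 10774133 to 18874161 counts per library. On simulated counts of this comparison with 200 changed genes, edgeR recovered 181, 85 of 100 changed by log2 2 and 96 of 100 changed by log2 3, with 4 false calls among 12986 genes. The counts were drawn independently for each gene and library, with no libraries set apart as WKY 1 and WKY 3 were. Changes smaller than log2 2 were not simulated, while the median was 1.64 in the higher and -1.51 in the lower called genes. These rates therefore do not measure the error among the 464 calls.

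The comparison, its lists and its tests were chosen with earlier results of these data known. The rule for genes was the 12 higher and 12 lower of smallest p among called genes whose groups do not overlap, the silent genes and the runs of neighbours. It asked for symbols, and with none matched only 2 identifiers in each direction are printed. Giving the rest by position, the first 5 Mb of chromosome 20, the mitochondrial genes, the most abundant genes, the genes carried by 1 library and the 2 stretches was decided after their values were seen. The lists of cell type markers and pathways need gene names and were not analysed here, and no sequences are printed. Alternatives were DESeq2 1.42.0, limma 3.58.1 (voom with sample weights), other normalizations, filters and thresholds, a replicate block, leaving out each rat, and, added after seeing the data, leaving out WKY 1 and WKY 3 together. Per the study's methods, vWAT was taken from each rat, so p-values measure the spread between rats. Random assignment was between water and TMAO within the SHRs, and does not cover SHR-TMAO against WKY. The rats were housed several to a cage, and which rats shared a cage is not given in the sources used here. A difference between cages therefore cannot be told apart from one between rats or groups.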

Additional observations from a re-analysis of the deposited data

Results flagged for a closer look

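Over the 24 genes of smallest p and 4 library measures, 56 groups of 6 rats were examined for 1 rat far from the others of its group, and 8 had one. For evenly measured values chance gives about 1 in 20, a rate that does not hold for genes at or near 0 counts, where 1 rat with any read stands apart by construction. The rate need not hold for the other genes either, as all 24 were picked for small p and groups that did not overlap. In WKY 6, the chromosome 11 gene at 33909439 had 0.961 CPM (other WKY rats 0.0485 to 0.321) and the gene at 32440237 had 0.897 CPM (others 0.244 to 0.457). In WKY 3, the chromosome 15 gene at 42757235 had 20.9 CPM (others 8.92 to 13.0). SHR-TMAO 6 had 20.1 CPM of the chromosome 1 gene at 189289957 (others 6.41 to 10.1), and SHR-TMAO 2 had 221 CPM of the chromosome 20 gene at 13817795 (others 77.5 to 124). SHR-TMAO 3 had 0.231 CPM of the chromosome 10 gene at 15577249, which was at 0 in the other SHR-TMAO rats. SHR-TMAO 1 had 0.0690 CPM of the chromosome 2 gene at 80948658 (others 0) and 0.414 CPM of the chromosome 7 gene at 121342679 (others 0 to 0.144).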

How the results depend on the processing

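The count of 464 genes was 802 with DESeq2 (458 shared), 736 with limma voom (436 shared), 995 with no fold limit, 230 at an adjusted p under 0.01 and 286 without WKY 1 and WKY 3. Leaving out 1 rat at a time gave 363 (without WKY 3) to 646 (without WKY 4). Other normalizations, no filter on low counts and all 18 samples in the fit gave 460 to 547. With the replicate block it was 341, of which 318 were shared. Same-numbered rats correlated by -0.24 to 0.27 in their deviations from the group means. Rats of different numbers were not compared in this way, so whether the numbers pair the samples is not settled. Chromosome 20 had 63 genes with no fold limit and otherwise 24 to 50 beside 35. With at most 1 count allowed in each library, 3 genes were silent, not 5. The cause of these changes was not tested, beyond the stricter or looser thresholds themselves. Of 1466 values under an alternative, over the 64 genes of smallest p, of the runs, of the mitochondrial genome, of the first 5 Mb of chromosome 20, silent in 1 group or most abundant (not those carried by 1 library or of the 2 stretches), 1359 kept their call, 107 lost it and none turned direction. All 64 genes were picked as called in the same data, 24 of them for smallest p, so this tally is no separate support. The log2 scale of the marker lists was not run, since no list could be matched. Depth limits the fold changes of genes with few counts, and the annotation without names limits what any gene can be said to do.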
